A study of Mus musculus with 23 samples.

Results

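The interferon response genes examined here are 49 mouse genes in 3 classes. They comprise 4 interferon receptor chains and 2 receptor-associated kinases, 5 transcription factors that act downstream of them, and 38 genes known to be induced by interferon. Members were listed by symbol and matched to array probes through the RefSeq accession printed for each probe, out of 18217 genes with a named probe. A probe was found for 46 members. Mx1, Mx2 and Dtx3l had none, and the probe of Oas1g did not pass the filter on dim probes, being well above background in 0 of 9 lymphoma lines, 0 of 6 Atm knockout spleens and 1 of 7 Atm wild-type spleens. That left 45 members with a test.

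Total RNA was measured on 1-colour Agilent arrays in 3 groups, all from C57BL/6 x 129 mice that lack Cd3e, part of the antigen receptor of T cells. The first group consisted of 9 B cell lymphoma lines made from tumour-bearing spleens of mice lacking both Atm, the DNA damage kinase mutated in ataxia telangiectasia, and Cd3e, and grown in suspension without further treatment. The submitters' design text counts 10 such lines, but 2 of the 10 arrays carry the same line name, one of them marked as a repeat, and were averaged here. The other groups were 6 tumour-free spleens from Atm knockout, Cd3e knockout mice, all female, and 7 spleens from Atm wild-type, Cd3e knockout mice, 4 male and 3 female. Ages, and which parts of Atm and Cd3e were deleted, are not given in the sources used here, and RNA was accepted above a RIN (an RNA integrity score) of 8. Each line is a single culture, whereas a spleen is a whole organ of many cell types.

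Interferons are secreted proteins that warn cells of infection. Type I interferons bind the Ifnar1 and Ifnar2 chains and type II interferon, the product of Ifng, binds Ifngr1 and Ifngr2. The kinases Jak1 and Tyk2 (Jak1 and Jak2 for type II) then phosphorylate STAT proteins. A complex that holds Stat2 and Irf9 binds the interferon-stimulated response element (ISRE), and pairs of STAT proteins bind the gamma-activated site (GAS), which switches on genes that block viral replication, sense foreign RNA, or mark and destroy intracellular pathogens. In the spleen, macrophages, dendritic cells, natural killer cells and B cells all carry a basal level of this programme. The question asked of the lymphoma lines was whether receptors, kinases and transcription factors were low along with the induced genes.

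The regulatory letters behind this programme can be read in front of the genes themselves. RefSeq promoter windows (GRCm38.p6, 250 bases before to 50 after each start) were listed for 37 members, and each was searched on both strands for the ISRE core, GAAA followed by any 2 bases and GAAA again, and for the GAS core TTCNNNGAA, with matches allowed to overlap. The ISRE letters were present in 17 of the 37 members (45.9%), against 3.99% of the 27025 genes with such a window. Among induced genes the letters were present in 16 of 26 (61.5%), among transcription factors in 1 of 5, the window of Stat2, and among receptors and kinases in 0 of 6. The stretches below are shown because they place genes that were far lower in the lymphoma lines (Oas1a, Ifit3, Isg15), moderately lower (Irgm1, Gbp2), slightly lower (Stat2) and not different (Bst2, Igtp) beside each other. Ifit3 was chosen after its values were seen. Each is written 5′ to 3′ along the strand of the gene, and capitals mark every base of an ISRE match in either orientation.
Oas1a (chr5:120907526-120907575, minus strand): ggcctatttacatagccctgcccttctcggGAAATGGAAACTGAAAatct
Ifit3 (chr19:34583343-34583446, plus strand): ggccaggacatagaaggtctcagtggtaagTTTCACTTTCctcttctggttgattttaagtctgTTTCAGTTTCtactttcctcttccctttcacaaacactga
Isg15 (chr4:156200845-156200926, minus strand): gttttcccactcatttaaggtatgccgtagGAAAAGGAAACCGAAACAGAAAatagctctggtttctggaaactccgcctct
Irgm1 (chr11:48871421-48871480, minus strand): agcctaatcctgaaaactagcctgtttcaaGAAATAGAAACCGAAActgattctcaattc
Gbp2 (chr3:142620574-142620643, plus strand): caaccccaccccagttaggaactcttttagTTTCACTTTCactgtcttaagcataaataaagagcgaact
Stat2 (chr10:128270248-128270315, plus strand): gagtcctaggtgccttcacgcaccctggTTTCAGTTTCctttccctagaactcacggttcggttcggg
Bst2 (chr8:71537557-71537632, minus strand): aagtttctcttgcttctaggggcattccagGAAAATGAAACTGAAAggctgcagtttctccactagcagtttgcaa
Igtp (chr11:58199492-58199555, plus strand): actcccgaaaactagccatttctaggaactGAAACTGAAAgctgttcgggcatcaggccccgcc

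In Isg15, 3 overlapping matches ran together, and Oas1a, Bst2 and Irgm1 each held 2 that overlapped. Bst2 and Oas1a thus carried the same kind of doubled element, although their levels in the lymphoma lines were unlike, as described below. The GAS letters were found in 9 of 37 members (24.3%), against 9.55% of all genes with a window. Among the tested induced genes, 15 with the ISRE letters had a median log2 difference of −1.71 between lymphoma lines and Atm knockout spleens, and 9 without them had a median of −2.94. A match is a description of these letters only.

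Across the series, 54.9% to 62.3% of probes were well above background in the lymphoma arrays and 61.7% to 67.7% in the spleen arrays. Levels are given as log2 signal relative to the 75th percentile of the array, so that 0 equals that percentile. The log2 level of Atm was −0.67 to 0.00 in the wild-type spleens, −2.69 to −2.07 in the knockout spleens and −4.38 to −2.77 in the lines, with no overlap between groups. All 10 B cell markers were well above background in every line, with a log2 summed level of 8.39 to 9.24 in the lines, 8.50 to 9.03 in the knockout spleens and 8.53 to 9.11 in the wild-type spleens. Of 8 T cell markers tested, 5 were lower than in knockout spleens and 3 higher, against 28.9% and 41.6% of all tested genes. Thy1 and Cd8a were not well above background in any line, whereas Cd3e, Cd3d and Cd3g were higher. Cd247, another gene of the Cd3 complex, was lower, at −8.39 to −4.54 in the lines and −0.86 to −0.18 in the knockout spleens. Cd3e itself, labelled as deleted in all groups, was well above background in every sample, at −3.30 to −1.22 in the lines, −4.65 to −3.86 in the knockout spleens and −4.63 to −3.96 in the wild-type spleens. It was higher in the lines without overlap (1.87 ± 0.24 against knockout spleens, limma adjusted p = 4.88e-07). The deleted part is not given, so whether the 1 probe of Cd3e lies in it is not known. The source of the signal was not tested. Cd3g and Cd3d, its partners, had mean log2 levels of 2.69 and −0.88 in the lines and of −4.66 and −2.995 in the knockout spleens. In lines 3, 8 and 9, Cd3d (−3.34, −2.57 and −3.61) lay within the range of the knockout spleens (−3.89 to −2.24). The 2 arrays of lymphoma line 8 correlated at 0.969 over 21833 probes, with an SD of 0.76 for their log2 difference.

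In the lymphoma lines, most interferon response genes were lower than in Atm knockout spleens. Of the 45 members tested, 37 were lower, 2 were higher and 6 did not pass (limma, Benjamini-Hochberg adjusted p under 0.05 over all 13720 tested genes). Over all tested genes 28.9% were lower and 41.6% higher. The median log2 difference was −1.71 for the members and 0.18 for all tested genes. In 33 members every line lay below every knockout spleen, which was the case for 16.8% of all tested genes, and in 0 members did every line lie above, against 24.1%. The levels of the 45 members are shown by sample.

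**Figure D1:**
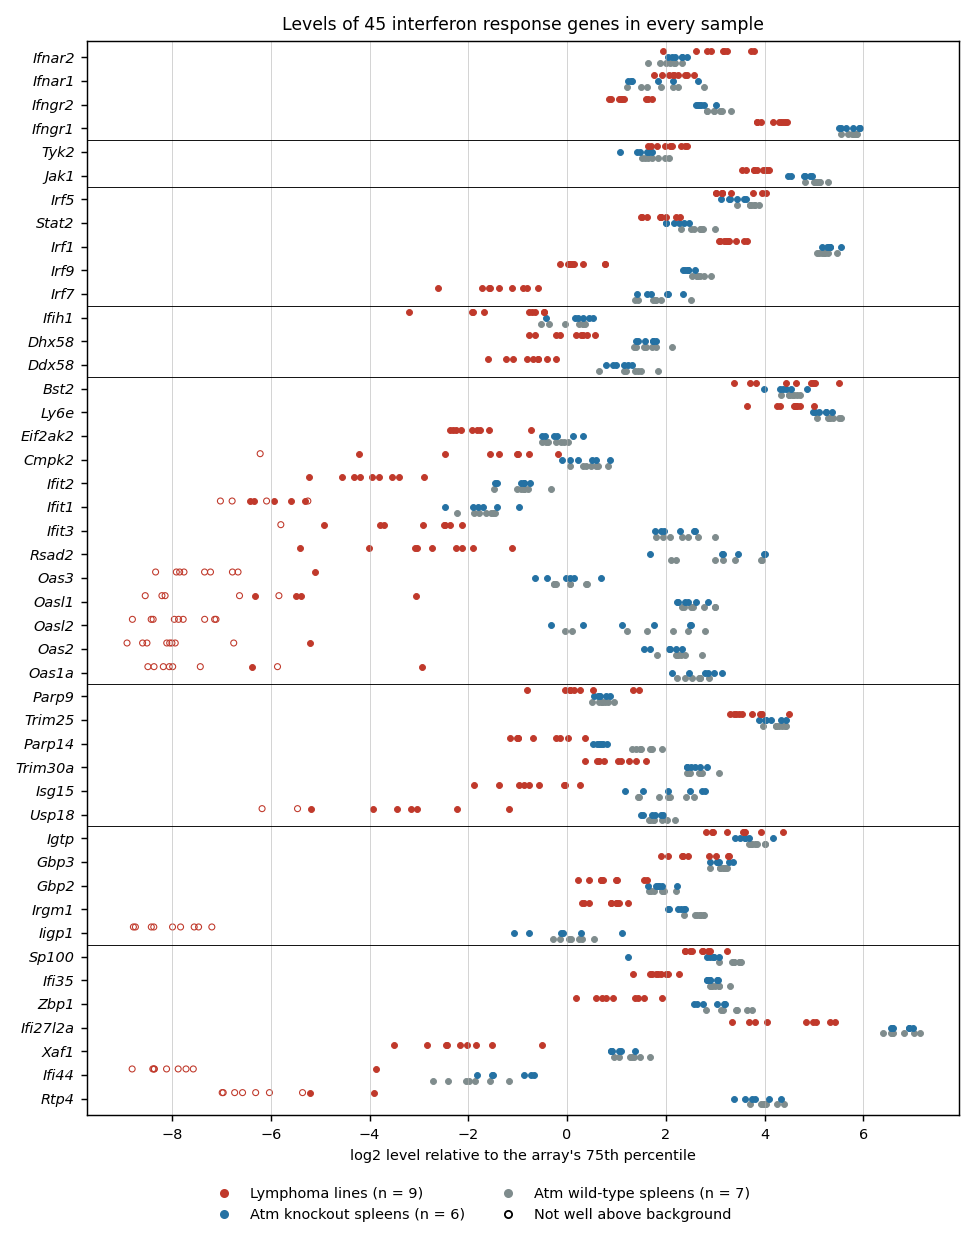
Log2 level relative to the array's 75th percentile (horizontal axis) of the 45 tested interferon response genes (rows, grouped by role) in each of 9 lymphoma lines, 6 Atm knockout spleens and 7 Atm wild-type spleens. Each point is 1 sample, with open points not well above background. Receptors and kinases lie closer together across groups, whereas Oas1a, Oas2, Oasl2 and Rtp4 lie between −8.91 and −2.94 in the lines and between −0.33 and 4.40 in the spleens.

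Receptors and kinases had a smaller median shift than induced genes and transcription factors, whose medians were close to each other. Among the 34 induced genes tested, 30 were lower and 0 higher, also 0 at an unadjusted p under 0.05 by limma, with a median of −2.07. Ifit1, Oas1a, Oas2, Oas3, Oasl1, Oasl2, Iigp1, Rtp4 and Ifi44 were well above background in fewer than 6 lines. They passed the filter on dim probes only with the spleens, which favours a lower call in the lines. Their calls are therefore no independent support, here or in the counts over all members. The 5 transcription factors had 4 lower and a median of −2.02. The 6 receptors and kinases had 3 lower and 2 higher, with a median of −0.23. That last median was positive when arrays were centred on their median signal instead (0.43), a scaling under which the median of all genes was 0.83 and not 0.18. It was 0.04 within the single slide numbered 6. Median centring gave −1.42 for induced genes and −1.36 for transcription factors.

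Spleens hold cells that the lines do not, and most markers of such cells were lower in the lines. Over all tested genes, 28.9% were lower and 41.6% higher than in knockout spleens. Against the knockout spleens, 10 of 11 macrophage and monocyte markers were lower in the lines, and Ccr2 was not well above background in any line. Their mean log2 level was −5.24 to −3.79 in the lines and 2.11 to 2.99 in the knockout spleens. Their log2 summed level (4.65 to 6.76 against 7.01 to 7.62) was carried in most lines by Ly6c2, the marker that did not pass, and line 9 had Adgre1 at 4.10, above every spleen. All 8 neutrophil markers were lower, with summed levels of −5.51 to 0.52 against 7.87 to 9.49, and Retnlg, Mmp8 and Elane were not well above background in any line. All 8 natural killer cell markers were lower, at −3.11 to 1.35 against 5.42 to 6.08, with Klrk1, Gzmb and Eomes not well above background in any line. All 6 conventional dendritic cell markers were lower too (−0.77 to 3.02 against 3.11 to 3.67; Zbtb46, Cd209a and Clec10a not well above background in any line). Of 8 plasmacytoid dendritic cell markers, one of which is the member Bst2, 4 were lower, 1 was higher (Tcf4) and 3 did not pass. Their summed levels were 5.91 to 7.38 against 7.34 to 7.80, carried in the knockout spleens mostly by Ly6d (7.01 to 7.52). The part of these cells in the lower levels of the members was not tested, and in bulk RNA fewer cells of a type and less RNA per cell cannot be told apart.

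Among the receptors, both type II chains were lower in the lines and neither type I chain was. Ifngr1, the ligand-binding chain for type II interferon, ranged from 3.84 to 4.46 in the lines (median 4.30), from 5.51 to 5.94 in the knockout spleens (median 5.73) and from 5.56 to 5.88 in the wild-type spleens (median 5.81). All 9 lines lay below all 13 spleens. The log2 difference was −1.55 ± 0.11 (SE; 2.92-fold lower, adjusted p = 5.53e-11) against knockout spleens and −1.59 ± 0.11 against wild-type spleens.

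Ifngr2, the signalling partner of Ifngr1, ranged from 0.85 to 1.71 in the lines (median 1.11), from 2.61 to 3.01 in the knockout spleens (median 2.70) and from 2.83 to 3.32 in the wild-type spleens (median 2.98). The lines again lay entirely below the spleens. It was 2.85-fold lower than in knockout spleens (log2 difference −1.51 ± 0.13, adjusted p = 1.71e-09), and its other probe gave −1.39.

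Ifnar1, a chain of the type I receptor, ranged from 1.75 to 2.57 in the lines (median 2.18), from 1.23 to 2.66 in the knockout spleens (median 1.57) and from 1.21 to 2.78 in the wild-type spleens (median 1.89). The groups overlapped widely. The difference from knockout spleens was 0.44 ± 0.23 (adjusted p = 0.0919). It passed without knockout spleen 1 (0.63, adjusted p = 0.0149) and with median centring (1.099).

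Ifnar2, the other type I chain, ranged from 1.95 to 3.80 in the lines (median 3.15), from 2.04 to 2.43 in the knockout spleens (median 2.25) and from 1.63 to 2.34 in the wild-type spleens (median 2.09). Of the 9 lines, 8 lay above every spleen of both groups, and line 9 was the exception. The log2 difference was 0.80 ± 0.20 against knockout spleens (adjusted p = 0.00135) and 1.004 ± 0.19 against wild-type spleens (adjusted p = 8.9e-05). A second probe for Ifnar2 gave −0.02 and −0.19, so the higher level rests on 1 probe.

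The kinases split as well. Jak1, which serves both receptors, ranged from 3.55 to 4.09 in the lines (median 3.84), from 4.48 to 4.96 in the knockout spleens (median 4.81) and from 4.81 to 5.28 in the wild-type spleens (median 5.07). No line overlapped a spleen. The difference was −0.89 ± 0.10 against knockout spleens (adjusted p = 9.2e-08) and −0.96 with another probe, but −0.24 (adjusted p = 0.0788) with median centring.

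Tyk2, the kinase bound to Ifnar1, ranged from 1.63 to 2.42 in the lines (median 2.09), from 1.06 to 1.72 in the knockout spleens (median 1.54) and from 1.52 to 2.07 in the wild-type spleens (median 1.71). The lines overlapped both spleen groups. Tyk2 was higher than in knockout spleens (0.56 ± 0.14, adjusted p = 0.000947), and the difference from wild-type spleens was 0.29 ± 0.13 (adjusted p = 0.0543). The latter passed when line 2, 3 or 6 or wild-type spleen 1 or 6 was left out, with values of 0.32 to 0.34.

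Of the transcription factors, Irf7, Irf9 and Irf1 were clearly lower, Stat2 slightly and Irf5 not against knockout spleens. Irf7, which amplifies type I interferon production and is itself induced by interferon, ranged from −2.61 to −0.59 in the lines (median −1.37), from 1.41 to 2.36 in the knockout spleens (median 1.87) and from 1.38 to 2.51 in the wild-type spleens (median 1.78). The groups were far apart. It was 9.33-fold lower than in knockout spleens (−3.22 ± 0.25, adjusted p = 1.48e-10).

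Irf9, the DNA-binding subunit of the complex with Stat2, ranged from −0.14 to 0.77 in the lines (median 0.11), from 2.35 to 2.58 in the knockout spleens (median 2.44) and from 2.54 to 2.92 in the wild-type spleens (median 2.63). The lowest spleen lay well above the highest line. The difference was −2.21 ± 0.12 (4.63-fold lower, adjusted p = 8.67e-13), with −1.79 from a second probe.

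Irf1, a factor that is induced mainly by type II interferon, ranged from 3.08 to 3.64 in the lines (median 3.26), from 5.17 to 5.55 in the knockout spleens (median 5.31) and from 5.06 to 5.47 in the wild-type spleens (median 5.21). There was no overlap. It was 4.05-fold lower than in knockout spleens (−2.02 ± 0.10, adjusted p = 5.4e-14), and a second probe gave −1.92.

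Stat2, a STAT protein of the type I response, ranged from 1.502 to 2.29 in the lines (median 1.91), from 2.01 to 2.48 in the knockout spleens (median 2.22) and from 2.31 to 2.99 in the wild-type spleens (median 2.70). The lines overlapped the knockout spleens but not the wild-type spleens. The difference was −0.34 ± 0.13 (adjusted p = 0.0224) against the former and −0.78 ± 0.12 (adjusted p = 8.54e-06) against the latter. The first did not pass without knockout spleen 3 (adjusted p = 0.0522) or 6 (adjusted p = 0.0629), nor with normexp background correction (−0.40, adjusted p = 0.0737), and it was 0.31 with median centring.

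Irf5, a factor for inflammatory cytokine genes that B cells and macrophages carry, ranged from 3.01 to 4.03 in the lines (median 3.15), from 3.12 to 3.62 in the knockout spleens (median 3.37) and from 3.43 to 3.89 in the wild-type spleens (median 3.72). All groups overlapped. The difference from knockout spleens was 0.00 ± 0.16 (adjusted p = 0.998), which became −0.36 with quantile normalisation and 0.66 with median centring. Against wild-type spleens it was −0.33 ± 0.15 (adjusted p = 0.0519), and that passed when line 1, 5 or 9 or wild-type spleen 2 was left out, with values of −0.41 to −0.38.

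**Figure D2:**
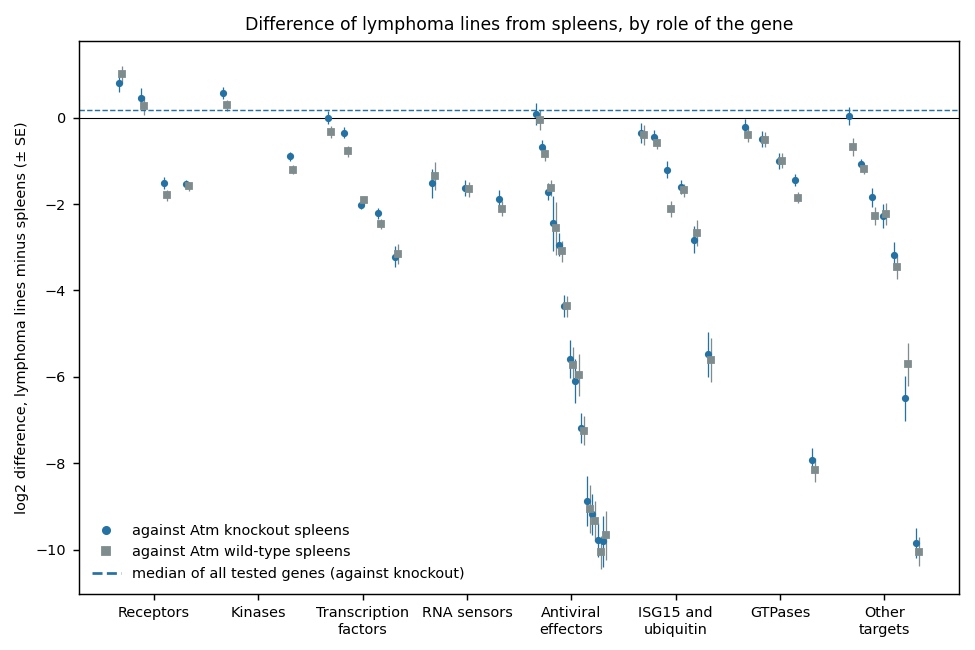
Log2 difference of the lymphoma lines from Atm knockout spleens (circles) and from Atm wild-type spleens (squares), with standard errors, for the 45 tested genes ordered by role. The dashed line is the median of all tested genes (0.18). Receptors and kinases lie between −1.79 and 1.004, and antiviral effectors reach −10.06.

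The antiviral effectors had the lowest median of the roles among the induced genes. Of 13 tested, 12 were lower than in knockout spleens and 0 higher, with a median of −5.59. The oligoadenylate synthetases make a product that activates an RNA-degrading enzyme. Oas1a ranged from −8.49 to −2.94 in the lines (median −7.99), from 2.13 to 3.13 in the knockout spleens (median 2.83) and from 2.22 to 2.88 in the wild-type spleens (median 2.68). It was well above background in only lines 3 and 6, and in all spleens. The difference was −9.80 ± 0.60 (adjusted p = 3.3e-12). Oas1a and Oas1g are closely related genes, and a probe may read both.

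Oas2 ranged from −8.91 to −5.21 in the lines (median −8.05), from 1.56 to 2.33 in the knockout spleens (median 2.07) and from 1.81 to 2.74 in the wild-type spleens (median 2.26). Line 3 alone was well above background. The difference was −9.77 ± 0.39 (adjusted p = 2.2e-15). A dimmer probe of Oas2 gave −3.31, in the same direction but far smaller.

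Oasl2, a synthetase-like protein with a ubiquitin-like tail, ranged from −8.81 to −7.11 in the lines (median −7.87), from −0.33 to 2.51 in the knockout spleens (median 1.44) and from −0.04 to 2.79 in the wild-type spleens (median 1.62). It was not well above background in any line. The lines were therefore at least 182-fold lower than knockout spleens and at least 203-fold lower than wild-type spleens. These bounds set the lines at the faintest signal that counted as well above background. The limma adjusted p against knockout spleens (2.11e-13) belongs to the fit of the unbounded levels and not to the bound.

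At the other end of the class stood Bst2 (tetherin), which holds budding virus at the cell surface, and Ly6e, a membrane protein that limits virus entry. Bst2 ranged from 3.39 to 5.51 in the lines (median 4.64), from 4.00 to 4.86 in the knockout spleens (median 4.41) and from 4.34 to 4.72 in the wild-type spleens (median 4.56). Lines lay on both sides of the spleens. The difference was 0.08 ± 0.25 (adjusted p = 0.794), which was 0.73 with median centring (adjusted p = 0.0113) and −0.38 with quantile normalisation. Ly6e had medians of 4.61 in the lines, 5.17 in the knockout spleens and 5.32 in the wild-type spleens, and its highest line overlapped the lowest knockout spleen. Its difference from knockout spleens was −0.67 ± 0.15 (adjusted p = 0.000362), and −0.01 with median centring.

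The other 8 antiviral effectors (Ifit1, Ifit2, Ifit3, Oas3, Oasl1, Rsad2, Cmpk2 and Eif2ak2) were all lower than in knockout spleens, by log2 differences of −8.86 to −1.71, and in each of them every line lay below every spleen. Ifit3, which binds viral RNA in a complex with Ifit1, had a median of −2.92 in the lines, 2.13 in the knockout spleens and 2.32 in the wild-type spleens. Rsad2 (viperin), which makes a chain-terminating nucleotide, had medians of −2.73, 3.31 and 3.16 in the same order.

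All 3 RNA sensors were lower, by 1.52 to 1.87 on the log2 scale. Ddx58 (RIG-I), which detects short viral RNA ends, ranged from −1.61 to −0.22 in the lines (median −0.69), from 0.79 to 1.31 in the knockout spleens (median 1.08) and from 0.64 to 1.84 in the wild-type spleens (median 1.37). It did not overlap with either spleen group and differed from knockout spleens by −1.87 ± 0.19 (adjusted p = 1.44e-08). Dhx58 (LGP2), which modulates the other sensors, ranged from −0.76 to 0.57 in the lines (median 0.18), from 1.39 to 1.79 in the knockout spleens (median 1.67) and from 1.36 to 2.13 in the wild-type spleens (median 1.60). It too was separate, at −1.62 ± 0.18 (adjusted p = 7.89e-08). Ifih1 (MDA5), the sensor of long double-stranded RNA, ranged from −3.21 to −0.47 in the lines (median −0.77), from −0.43 to 0.53 in the knockout spleens (median 0.27) and from −0.52 to 0.36 in the wild-type spleens (median 0.25). Its highest line reached the lowest wild-type spleen, and the difference from knockout spleens was −1.52 ± 0.33 (adjusted p = 0.000372).

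Of 6 genes of the ISG15 and ubiquitin group, 5 were lower than in knockout spleens and 0 higher, with a median of −1.41. Usp18, the protease that removes ISG15 and restrains the type I receptor, ranged from −6.18 to −1.17 in the lines (median −3.44), from 1.49 to 1.94 in the knockout spleens (median 1.75) and from 1.65 to 2.20 in the wild-type spleens (median 1.76). It was detected in that way in 7 of 9 lines and was separate from all spleens, at −5.48 ± 0.53 (44.7-fold lower, adjusted p = 7.35e-09). Isg15, the ubiquitin-like tag itself, ranged from −1.88 to 0.27 in the lines (median −0.77), from 1.18 to 2.80 in the knockout spleens (median 2.27) and from 1.44 to 2.56 in the wild-type spleens (median 2.04). The highest line was below the lowest spleen, and the difference was −2.83 ± 0.31 (7.10-fold lower, adjusted p = 4.62e-08). Trim30a, a ubiquitin ligase family member that dampens inflammatory signalling, was lower by 1.61 on the log2 scale (SE 0.16, adjusted p = 1.21e-08), again without overlap.

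Trim25, the ligase that activates RIG-I, and Parp9, an ADP-ribosyltransferase family member, had the smallest differences in this group. Trim25 had medians of 3.55 in the lines, 4.08 in the knockout spleens and 4.30 in the wild-type spleens, with overlap. The difference was −0.44 ± 0.15 (adjusted p = 0.0124), but 0.22 with median centring and −1.94 with another probe. Parp9 ranged from −0.81 to 1.46 in the lines around knockout spleens of 0.55 to 0.87. Its difference of −0.36 ± 0.24 (adjusted p = 0.188) passed without line 5 (−0.50, adjusted p = 0.0356), and was 0.30 with median centring. Parp14, a relative of Parp9, ranged from −1.16 to 0.35 in the lines (median −0.69) and from 0.54 to 0.82 in the knockout spleens (median 0.66), at −1.20 ± 0.20 (adjusted p = 1.17e-05), without overlap.

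The interferon-inducible GTPases attack the vacuoles of intracellular pathogens. Of 5 tested, 4 were lower than in knockout spleens and 0 higher, with a median of −1.002. Iigp1 ranged from −8.79 to −7.20 in the lines (median −7.99), from −1.07 to 1.12 in the knockout spleens (median −0.10) and from −0.28 to 0.55 in the wild-type spleens (median 0.07). It was not well above background in any line, so the lines were at least 68.3-fold lower than knockout spleens and at least 79.5-fold lower than wild-type spleens. As for Oasl2, the limma adjusted p against knockout spleens (4.64e-16) belongs to the fit of the unbounded levels. Irgm1, a regulator of that family, was lower by 1.44 on the log2 scale (SE 0.13, adjusted p = 4.01e-09) without overlap. Gbp2, a guanylate-binding protein, ranged from 0.21 to 1.61 in the lines against 1.64 to 2.23 in the knockout spleens, at −1.002 ± 0.18 (adjusted p = 3.01e-05). With median centring it was −0.35 (adjusted p = 0.0734).

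Gbp3, a relative of Gbp2, and Igtp, another regulator of the family, had lines that overlapped the spleens. Gbp3 had medians of 2.46 in the lines, 3.06 in the knockout spleens and 3.17 in the wild-type spleens. The difference was −0.50 ± 0.18 (adjusted p = 0.0183), which did not pass without lines 3 and 7 together (−0.38, adjusted p = 0.0663) and was 0.15 with median centring. Igtp ranged from 2.81 to 4.37 in the lines (median 3.56), from 3.404 to 4.18 in the knockout spleens (median 3.61) and from 3.69 to 4.02 in the wild-type spleens (median 3.81). It did not pass (−0.22 ± 0.19, adjusted p = 0.306), except with quantile normalisation (−0.59, adjusted p = 0.00841). With median centring it was 0.43. The ISRE letters printed above for Igtp, Irgm1 and Gbp2 were also found in 1 of the 2 windows of Gbp3.

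Of 7 further induced genes, 6 were lower than in knockout spleens and 0 higher, with a median of −2.27. Rtp4, a chaperone of membrane receptors, ranged from −6.99 to −3.92 in the lines (median −6.31), from 3.38 to 4.32 in the knockout spleens (median 3.78) and from 3.70 to 4.40 in the wild-type spleens (median 4.01). It was well above background in lines 3 and 6 only. The difference was −9.84 ± 0.35 (adjusted p = 3.35e-16), which rests on 7 lines not well above background and has no measured order with those of Oas1a and Oas2.

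Ifi44 ranged from −8.81 to −3.87 in the lines (median −8.11), from −1.83 to −0.66 in the knockout spleens (median −1.18) and from −2.71 to −1.18 in the wild-type spleens (median −1.99). Line 7 alone was well above background, and no line overlapped a spleen. The difference was −6.49 ± 0.52 (adjusted p = 3.17e-10). Xaf1, a pro-apoptotic protein, ranged from −3.51 to −0.51 in the lines (median −2.16) and from 0.89 to 1.37 in the knockout spleens (median 0.98), at −3.18 ± 0.29 (9.04-fold lower, adjusted p = 2.97e-09).

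Zbp1, a sensor of Z-form nucleic acid, and Ifi27l2a, an interferon-induced mitochondrial protein, were lower by 1.84 and 2.27 on the log2 scale. Ifi35 was lower by 1.08 (SE 0.11, adjusted p = 1.68e-08). Sp100, a nuclear body protein, ranged from 2.39 to 3.24 in the lines (median 2.74), from 1.23 to 3.09 in the knockout spleens (median 2.92) and from 3.07 to 3.52 in the wild-type spleens (median 3.38). Against knockout spleens the difference was 0.04 ± 0.21 (adjusted p = 0.87), but another probe of Sp100 gave 2.63, median centring 0.70 and quantile normalisation −0.25.

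The comparison with Atm wild-type spleens shares the lymphoma lines with the one above, so the values are set side by side and are no second test. Of 45 members, 38 were lower and 1 was higher (Ifnar2), against 30.9% of all tested genes lower and 40.4% higher. In 34 members every line lay below every wild-type spleen, against 18% of all tested genes, and in 0 members every line lay above, against 24%. The median log2 difference was −1.91 for the members and 0.14 for all tested genes. By class the medians were −2.26 for induced genes (31 of 34 lower), −1.91 for transcription factors (4 of 5 lower) and −0.46 for receptors and kinases (3 of 6 lower). With median centring the receptor and kinase median was 0.18. Sp100 was lower than in wild-type spleens (−0.68 ± 0.20, adjusted p = 0.00502), yet its other probe gave 2.65.

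**Figure D3:**
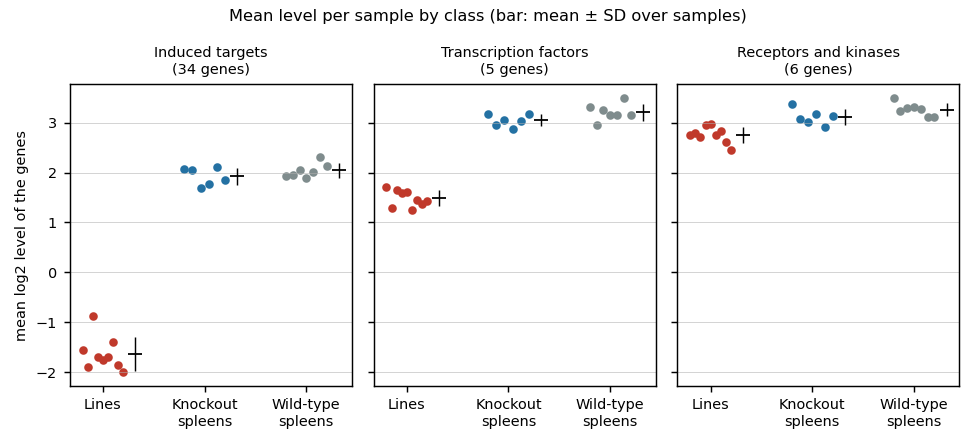
Mean log2 level per sample (vertical axis, relative to the array's 75th percentile) of the 34 induced genes, 5 transcription factors and 6 receptors and kinases. Each point is 1 sample and the bar is the mean ± SD over samples. Induced genes average −1.999 to −0.87 in the lines and 1.69 to 2.31 in the spleens, whereas receptors and kinases average 2.45 to 2.98 in the lines and 2.91 to 3.49 in the spleens.

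Averaged over the members of a class within each sample, the induced genes had a mean log2 level of −1.64 ± 0.34 (SD, n = 9) in the lines, 1.92 ± 0.18 (n = 6) in the knockout spleens and 2.04 ± 0.14 (n = 7) in the wild-type spleens. For transcription factors the means were 1.49 ± 0.17, 3.05 ± 0.12 and 3.21 ± 0.17. For receptors and kinases they were 2.76 ± 0.16, 3.12 ± 0.16 and 3.26 ± 0.13. The lines did not overlap the spleens for induced genes or transcription factors, but their highest value for receptors and kinases (2.98) was above the lowest knockout spleen (2.91).

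Slide 1 held only lines 7, 8 and 9, and the other 5 slides held lines and both kinds of spleen. Within each of those slides, at least 38 of the 39 members called against knockout spleens kept their direction. The median difference of induced genes within slides was −2.35 to −1.34, and that of transcription factors was −2.40 to −1.62. Without lines 3 and 7, which had the highest mean level of neutrophil markers, 36 members were lower than in knockout spleens and the median of induced genes was −2.21.

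The interferon pathway beyond the members was read from further lists. Their counts stand beside 28.9% of all tested genes lower and 41.6% higher than in knockout spleens. Of 4 ligand genes tested, 1 passed. Ifng ranged from −8.24 to −2.89 in the lines (median −4.54), from 3.83 to 4.56 in the knockout spleens (median 4.23) and from 3.67 to 4.07 in the wild-type spleens (median 3.92). In 7 of 9 lines Ifng was well above background. The difference was −8.84 ± 0.52 (adjusted p = 1.91e-12). Natural killer cells, whose markers were low in the lines, are a known source of Ifng, and their part in its level was not tested. Ifna2, Ifna5 and Ifnl3 were faint in every group, with differences of −0.30, −0.26 and 0.18 from knockout spleens that did not pass, and Ifna genes are near-identical copies that a probe may not separate. Ifnb1, Ifna4, Ifne and Ifnk did not pass the filter on dim probes. Ifnb1 and Ifna4 were well above background in 0 lines, and Ifnk in 4 of 9 lines and no spleen.

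Of 3 further receptor and kinase genes, Ifnlr1, the receptor for type III interferon, was lower than in knockout spleens (−5.36 ± 0.47), and 3 of 9 lines showed it well above background. Jak2, which serves the type II receptor, was lower by 0.92 (SE 0.12, adjusted p = 7.3e-07), although with median centring it was −0.27 (adjusted p = 0.108). Il10rb, the shared second chain of the type III receptor, differed by 0.12 ± 0.16 (adjusted p = 0.544). Of other STAT genes, 2 were higher (Stat3 at 0.53 and Stat5a at 0.45) and 3 lower (Stat4 at −1.62, Stat5b at −0.79 and Stat6 at −0.38). Over all tested genes 41.6% were higher and 28.9% lower, so these counts are not read as a trait of the list. Stat5b was 0.31 with another probe, and Stat6 was 0.28 with median centring. Among other IRF genes, Irf8, a factor of B cells and myeloid cells, was lower at −3.66 ± 0.46.

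Of 12 other sensing genes tested, 5 were lower and 2 higher. For all tested genes the shares were 28.9% and 41.6%, which also stand beside the feedback inhibitors below. The endosomal RNA receptors led the lower side. Tlr7 differed by −6.66 ± 0.64, and Tlr3, not well above background in any line, was at least 5.10-fold lower than in knockout spleens. On the higher side were Ticam1, the adaptor of Tlr3, at 1.37 ± 0.16, and Tbk1, the kinase that activates Irf3, at 0.43 ± 0.15. Of 9 feedback inhibitors, 5 were lower, led by Socs3 (−2.95 ± 0.73) and the RNA-editing enzyme Adar (−1.46 ± 0.14). Among them 1 was higher, the phosphatase Ptpn2, which acts on JAK and STAT proteins, at 1.90 ± 0.16 (adjusted p = 7.82e-10). Its log2 level was 4.81 to 6.27 in the lines and 3.59 to 3.97 in all spleens.

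Among 40 further induced genes that were not members, 32 were lower, 5 higher and 3 did not pass against knockout spleens, with a median of −2.29. Over all tested genes 28.9% were lower and 41.6% higher. Cxcl9, a chemokine for T cells, was not well above background in any line and was at least 57.4-fold lower. Tgtp1, another GTPase, differed by −7.66 ± 0.36. The 5 that were higher were Nlrc5, Psmb9, Psmb8, Tap1 and Tor3a. Nlrc5, the activator of MHC class I genes, ranged from −1.22 to 0.05 in the lines and from −1.72 to −1.34 in the knockout spleens (1.02 ± 0.17, adjusted p = 1.96e-05). Psmb9, a subunit of the immunoproteasome, ranged from 5.87 to 6.74 in the lines and from 5.36 to 5.72 in the knockout spleens (0.90 ± 0.12, adjusted p = 8.85e-07). Psmb8 and Tap1 serve the same antigen-processing route, and their differences of 0.46 and 0.34 were smaller. With quantile normalisation Psmb8 was −0.04 and Tor3a −0.09, and Tor3a was −0.25 with another probe.

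Levels of most members, like those of most genes, varied more among the lines than among the spleens. The SD over the 9 lines exceeded that of both spleen groups in 40 of 45 members (88.9%) and in 80.4% of all tested genes. The median SD was 0.55 in the lines, 0.24 in the knockout spleens and 0.23 in the wild-type spleens for the members, and 0.44, 0.23 and 0.21 for all tested genes. In the lines 33 members were well above background in all 9, 2 (Oasl2 and Iigp1) in none and 10 in some. In the spleens all 45 were well above background in every sample. The 33 members were thus well above background in every sample of the series, as were 10223 of the 13720 tested genes. Within 1 line the number of members well above background was 35 to 42, highest in line 3.

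**Figure D4:**
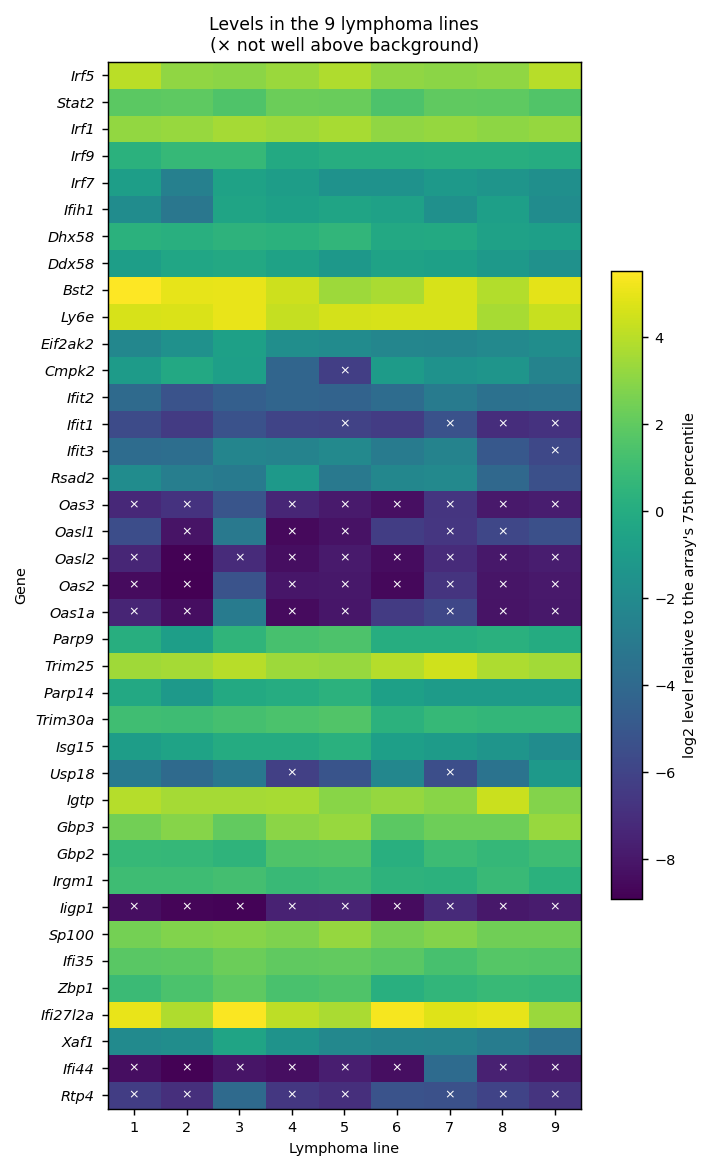
Log2 level relative to the array's 75th percentile (colour) of the 39 tested transcription factors and induced genes (rows) in the 9 lymphoma lines (columns), with crosses where a gene was not well above background. Line 3 has Oas1a at −2.94 and Oasl1 at −3.06, whereas both genes were not well above background in line 4.

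Among the 33 members well above background in all 9 lines, Rsad2 had the widest range across lines (4.30 log2 units, from −5.41 in line 9 to −1.11 in line 4), followed by Xaf1 (3.002) and Ifih1 (2.74). Other members varied between detected and not detected, so that their ranges have no measured lower end. Cmpk2, a nucleotide kinase next to Rsad2 in the genome, was not well above background in line 5 and reached −0.19 in line 2. Usp18 was not well above background in lines 4 and 7 and reached −1.17 in line 9. Oas1a, Oas2, Oas3, Oasl1 and Rtp4 were highest in line 3, and Ifi44 in line 7. The lines with the highest level were thus not the same for each gene. Line 3 held the highest level of 16 members, 14 of them among the 34 induced genes. Of these, Oas2 and Oas3 were well above background in no other line. The share of all tested genes highest in line 3 was not computed, so the count is not read as a trait of the members.

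The mean of the induced genes was −0.87 in line 3 and −1.999 to −1.40 in the other lines. Line 3 also had the highest mean log2 level of neutrophil markers (−5.26, against −8.53 to −5.97 in the others) and of macrophage and monocyte markers (−3.79, against −5.24 to −4.05), and the part of such cells in its levels was not tested. Lines are single cultures, and the 2 arrays of line 8 show how far 1 line can differ from itself. Isg15 differed by 2.51 between them, more than its range of 2.15 across the 9 lines, Oasl1 by 2.42 and Usp18 by 1.70. With either array of line 8 alone, 37 members were lower than in knockout spleens.

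The last comparison set Atm knockout against wild-type spleens, with sex as a term because all knockout spleens were female. Here 1 of 45 members was lower and 0 were higher (limma, adjusted p under 0.05), against 2.16% of all tested genes lower and 1.66% higher. At an unadjusted p under 0.05, 10 members were lower and 1 was higher, against 12.5% and 7.89% of all tested genes. The median difference was −0.18 for the members, against −0.05 for all tested genes. Natural killer cell markers were lower in the knockout spleens for 4 of 8 genes (Klrb1c, Klrk1, Gzma and Nkg7), with log2 summed levels of 5.42 to 6.08 against 5.88 to 6.44, and the part of those cells in the members' levels was not tested.

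Parp14 was the member that passed. It ranged from 0.54 to 0.82 in the knockout spleens (median 0.66) and from 1.31 to 1.92 in the wild-type spleens (median 1.497). The groups did not overlap, as for 2.1% of all tested genes in that direction and 2.27% in the other. The difference was −0.85 ± 0.13 (adjusted p = 0.00499), with values of −1.097 to −0.54 within slides. It did not pass with normexp background correction (−0.62, adjusted p = 0.379) or with another probe of Parp14 (−0.14, adjusted p = 0.808). Without the term for sex 5 members were lower. With single spleens left out, 1 to 3 members were lower. Stat2 passed without knockout spleen 6 (−0.59) or wild-type spleen 2 (−0.54), Irgm1 without knockout spleen 5 (−0.48) or wild-type spleen 2 (−0.44), and Sp100 without knockout spleen 3 (−0.51). Ifnar2 was higher without knockout spleen 6 (0.44, adjusted p = 0.0395).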

How the data were processed

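Agilent Feature Extraction 10.7.1.1 made the scanner files, per the submitters' processing notes and the file headers; their background-subtracted signals are deposited as intensity on a linear scale. The deposited value table holds log2 values of the same arrays, which correlated at 0.9996 or more with the scanner values once each probe was centred on its median over arrays, so that table appears centred by probe. From the scanner files, log2 intensity minus each array's 75th percentile was taken, repeat spots were averaged, and control and outlier spots were left out. No spot was saturated.

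Of 41174 probes, 26690 had a RefSeq accession that matched a symbol (GRCm38.p6). A gene was tested where a probe was well above background in at least 6 of 22 samples with no missing value, taking the probe with the highest mean, which left 13720 genes. A gene seen in the spleens alone could thus pass, which favours a lower call in the lines. The fits used limma 3.58.1 (R 4.3.3, with the data.table package at version 1.17.8). Genes were called at an adjusted p under 0.05. A run of the fit on simulated data gave each gene the same spread in all groups. The real lines varied more than the spleens, so that run does not vouch for the calls. The lines and both spleen groups shared one fit, and the genotype comparison used the 13 spleens with sex. P-values set each difference against the spread between these samples, which the shared fit pooled over the lines and the spleens. Arrays carry no read depth, and their number limits the precision.

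Alternatives were median centring, quantile normalisation, normexp (offset 50, on median signals, since the files hold no mean signal), the deposited table, no filter, another probe, slide as a term, other fits, and leaving out each sample. Leaving out lines 3 and 7 together, and slide with sex in the genotype fit, were chosen after seeing the data. The members and lists were chosen with earlier results of these data known. Described with values were all receptors, kinases, transcription factors and sensors, the 3 largest and 2 smallest differences of each other role, members called between genotypes, members without a test, and, of the pathway lists, Jak2, the ligands and the 2 largest called differences each way. Members whose direction differed from most of their role were described too. Ifit3, Rsad2, Zbp1, Ifi27l2a, Ifi35, Trim30a, Stat6, Il10rb, Psmb8, Tap1 and Tor3a were named after their values were seen. Some genes of the pathway lists are not reported here.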

Additional observations from a re-analysis of the deposited data

Results flagged for a closer look

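Of 135 groups of levels checked (45 members in 3 groups), 8 had a sample far from the others of its group, and chance flags about 1 in 20 groups. In the lymphoma lines, Oas1a was highest in line 3 at −2.94, with the next line at −5.87, and Eif2ak2, the double-stranded RNA-dependent kinase, was highest in line 3 at −0.73, with the next at −1.59. Ifi44 was highest in line 7 at −3.87, while the next line was at −7.57 and not well above background. In the knockout spleens, Rsad2 was lowest in spleen 6 at 1.67, Igtp was highest in spleen 2 at 4.18, and Sp100 was lowest in spleen 3 at 1.23, with the next at 2.83. In the wild-type spleens, Irf5 (3.43) and Sp100 (3.07) were both lowest in spleen 2. All 8 were log2 levels well above background.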

How the results depend on the processing

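Most calls kept their direction and their side of the threshold, but scaling moved the receptors, kinases and other small differences. With median centring, members higher than in knockout spleens numbered 7 and those higher than in wild-type spleens 4. The medians of induced genes, transcription factors, and receptors and kinases became −1.42, −1.36 and 0.43 against knockout spleens and −1.61, −1.26 and 0.18 against wild-type spleens. Stat2 (0.31), Trim25 (0.22), Gbp3 (0.15) and Stat6 (0.28) changed sign against knockout spleens, and Bst2 (0.59), Trim25 (0.064), Gbp3 (0.13) and Il10rb (0.57) against wild-type spleens. Over all genes, median centring called 2503 lower and 8678 higher against knockout spleens, and 2631 and 8531 against wild-type spleens (main 3964 and 5705, and 4240 and 5546). With quantile normalisation the medians of transcription factors and of receptors and kinases were −2.37 and −0.55 against knockout spleens and −2.31 and −0.80 against wild-type spleens. Irf5 (−0.36), Tor3a (−0.088) and Psmb8 (−0.039) changed sign against the former, and Stat3 (−0.0044) and Psmb8 (−0.14) against the latter. Between spleens it called 3 members lower and 1 higher. Normexp correction gave induced genes −1.65 and −1.77, transcription factors −1.72 against wild-type spleens, and 0 members lower between spleens. It called 2447 genes lower against knockout spleens, and between spleens 1 lower and 2 higher (main 297 and 228). Another probe gave transcription factors −1.79 and −1.70, receptors and kinases −0.49 and −0.70, and 0 members lower between spleens. With it Ifnar2 (−0.022), Stat5b (0.31) and Tor3a (−0.25) changed sign against knockout spleens, and Ifnar2 (−0.19), Sp100 (2.65), Stat5b (0.47) and Tor3a (−0.55) against wild-type spleens. With female wild-type spleens alone, or without lines 3 and 7, 2 members were higher than in wild-type spleens. Without a sex term 5 members, 699 genes lower and 742 higher were called between spleens; with slide added to sex, 111 and 146. Relative to the median of all genes, transcription factors were −2.20 and receptors and kinases −0.40 against knockout spleens. Within slides, against knockout spleens, receptors and kinases were −0.92 in slide 2 and 0.038 in slide 6, induced genes −1.34 in slide 4, and transcription factors −1.63, −1.62, −1.80 and −2.40 in slides 3 to 6. Against wild-type spleens, induced genes were −2.61 and −1.57 in slides 3 and 4, transcription factors −2.17, −1.61, −1.63 and −2.11 in slides 2, 4, 5 and 6, and receptors and kinases −0.80 and −0.65 in slides 2 and 6. Leaving out each sample in turn gave 36 to 38 members lower and 2 to 3 higher against knockout spleens, with medians of −2.17 to −1.92, −2.06 to −1.97 and −0.29 to −0.13 for the 3 classes. Against wild-type spleens it gave 38 to 40 lower and 1 to 2 higher, with medians of −2.37 to −2.16, −1.95 to −1.86 and −0.52 to −0.44. Between spleens it gave 1 to 3 lower and 0 to 1 higher. The cause of these changes was not tested. No paired analysis was made, because the sample titles carry a different number for each line and spleen and name no pairs. Signal over background limits the genes that the lines did not show well above background, whose fitted differences are not bounds.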
